A study of Mus musculus with 12 samples.

Results

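The comparison described here was that of mouse colon on a high-fat diet with 2% dextran sulfate sodium (labelled HFD+DSS, 3 libraries) against colon on the high-fat diet alone (labelled HFD, 3 libraries). These are 6 of the 12 libraries of a colon RNA sequencing study, in which the other 6 carry a diet labelled CD, without and with 2% DSS. All samples were wild-type C57BL/6J. Both groups compared here shared the high-fat diet, so the comparison holds the diet fixed and asks what differed with DSS on it. The labels give no age or sex of the mice, no length of the diet or of the DSS exposure, and do not spell out CD. A gene was tested where it reached 1 FPKM (fragments divided by exon length and library size) in at least 3 of these 6 libraries, which held for 13433 of the 54532 genes in the table.

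DSS is a sulfated polysaccharide that, taken in drinking water, injures the lining of the large intestine, so that gut bacteria reach the tissue beneath it. The response is known to include interleukin 6 family and interleukin 22 signals that act through the transcription factor STAT3 on epithelial cells, bacterial products that act through Toll-like receptors and NF-kappaB, secretion of antibacterial proteins, and entry of neutrophils. In the colon the epithelium both carries the damage and makes much of this defence, while fibroblasts and smooth muscle remodel the matrix around it.

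The libraries held 14700000 to 17900000 fragments on genes across the series. Markers of colon epithelium were high in all 6 libraries compared, with the adhesion molecule Epcam at 699, 599 and 812 FPKM in HFD replicates 1, 2 and 3 and 884, 809 and 676 in HFD+DSS replicates 1, 2 and 3, the order used for all values below. Of 3 pancreatic genes, Cpa1 and Pnlip were at 0 in all 6, and Cela1, an elastase, was at 15.3, 15.9 and 21.8 in HFD and 24.5, 30.1 and 52.5 in HFD+DSS, wholly higher and not called (limma adjusted p = 0.234). Genes that mark the anal end of the gut differed between libraries of 1 group. The mean log2(FPKM + 1) of Hoxa13, Hoxb13 and Hoxd13 was 1.23, 1.37 and 3.53 in HFD and 3.80, 3.74 and 4.57 in HFD+DSS, so HFD replicates 1 and 2 stood low and the DSS libraries were all higher. The mean level of 22 smooth muscle contractile genes was 5.47, 5.88 and 4.94 in HFD and 5.43, 5.29 and 6.44 in HFD+DSS, with HFD+DSS replicate 3 the highest. In whole tissue, fewer cells of a type and less RNA per cell cannot be told apart.

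Under the high-fat diet, genes of epithelial defence, STAT3 signalling and NF-kappaB feedback were higher with DSS. A smaller group that included the matrix proteoglycan Ogn and the surface glycoprotein Cd24a was lower. Every HFD+DSS library also had a higher mean level of Hoxa13, Hoxb13 and Hoxd13 than every HFD library. DSS and this level cannot be told apart in these libraries. Limma called 53 of 13433 genes at an adjusted p under 0.05 (0.395% of those tested), of which 39 were higher (0.29%) and 14 lower (0.104%) in HFD+DSS. The median log2 fold change was 1.49 over the genes called higher and -1.49 over those called lower, against 0.0071 over all genes tested. The 3 libraries of 1 group lay wholly above those of the other for every called gene. The same held for 8.88% of all genes tested in the higher direction and 7.59% in the lower. Such genes are called wholly higher or wholly lower here, and these shares are the background for the list counts below. The filter admitted 8 of the 39 genes called higher only through the HFD+DSS libraries, among them Mmp3, Chrdl2, Thpo, Zbtb16 and Cox8b, and 2 of the 14 called lower only through the HFD libraries.

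The number of calls depended on single libraries. Without HFD replicate 1, 2 or 3 there were 3, 1 and 19 calls, and without HFD+DSS replicate 1, 2 or 3 there were 10, 79 and 16. Leaving out CD replicate 1, 2 or 3, which enter the fit only through the estimate of the spread, gave 21, 27 and 28, and leaving out CD+DSS replicate 1 gave 35. All 53 called genes kept their direction in each of these fits. That was fixed in advance, since their groups did not overlap and the CD and CD+DSS libraries do not enter the fold change. With the posterior Hox level as a covariate 1 gene, Pla2g5, was called, while all 53 again kept their direction and the median log2 fold change was 1.47 over the 39 genes and -1.20 over the 14. HFD replicate 3, the HFD library with the highest Hox level, was the one nearest to the DSS libraries in 19 of the 39 genes called higher (46.6% of all 1193 genes tested that were wholly higher).

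**Figure D1:**
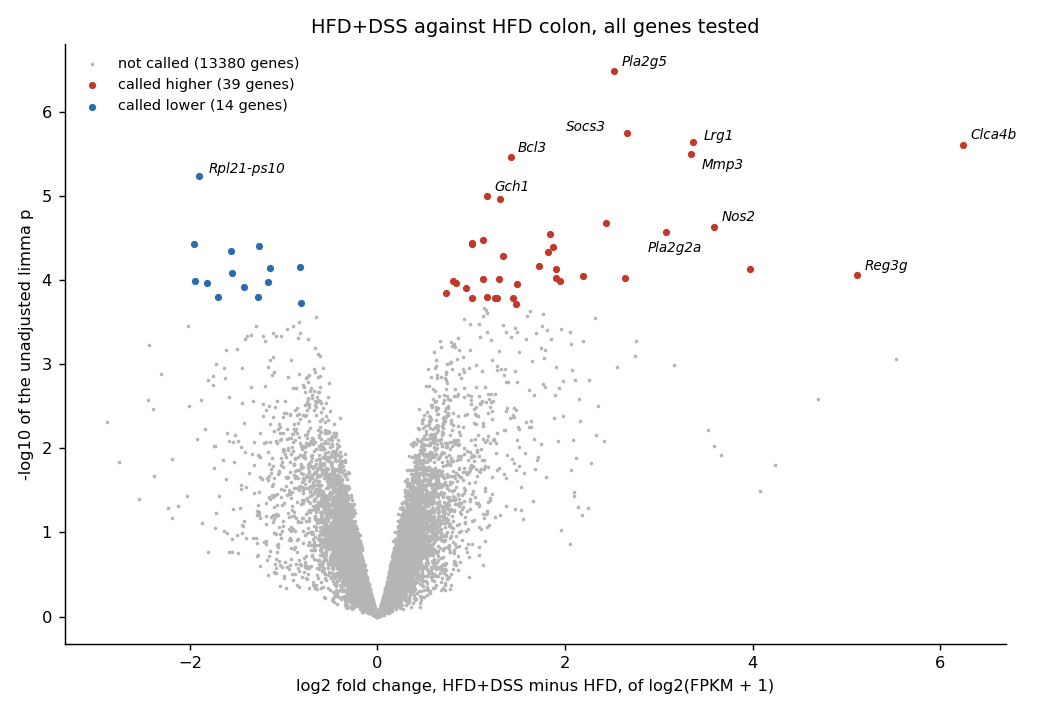
Each point is 1 of the 13433 genes tested, placed by its log2 fold change between HFD+DSS and HFD (horizontal axis) and by -log10 of its unadjusted limma p (vertical axis). The 39 genes called higher (red) reached log2 fold changes up to 6.24 (Clca4b), and the 14 called lower (blue) lay between -1.95 and -0.82.

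Among the called genes, the largest 2 log2 fold changes were in genes of the gut epithelium. Clca4b (chr3:144910921-144932529 in mm10, ENSMUSG00000074195), a member of the calcium-activated chloride channel regulator family, was at 3.56, 2.27 and 7.16 FPKM in HFD and 1251, 251 and 167 in HFD+DSS. Its log2 fold change was 6.24 ± 0.72 (SE, limma adjusted p = 0.00786). Every DSS library was far above every HFD library, and HFD+DSS replicate 1 was the highest. Reg3g (chr6:78466269-78468872), a lectin that kills Gram-positive bacteria, was at 16.5, 7.86 and 19.3 FPKM in HFD and 797, 559 and 294 in HFD+DSS (5.12 ± 0.86, limma adjusted p = 0.0364). Its close relative Reg3b, which may share reads with it, was at 133, 22.9 and 95.5 in HFD and 4027, 3489.6 and 2173 in HFD+DSS. Its log2 fold change lay between those of Clca4b and Reg3g, at 5.53 ± 1.23, but it was not called (limma adjusted p = 0.093).

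Antibacterial proteins of the epithelium formed the list with the most calls. Of its 20 members tested (of 23), 6 were called higher and none lower, 16 had a positive fold change (51% of all genes tested had one), and the median log2 fold change was 1.19. S100a8 and S100a9 on this list passed the filter through the DSS libraries alone and Itln1 through the HFD libraries alone, which fixed their signs. Of the other 17 genes 14 were positive, with a median of 1.03. The 6 were Reg3g, Nos2, Slpi, Wfdc18, Pla2g5 and Pla2g2a. Pla2g5 encodes a secreted phospholipase A2, an enzyme that cuts membrane phospholipids, including those of bacteria. Pla2g2a is a gene of the same family that the annotation lists as a polymorphic pseudogene. Whether its transcript gives an active enzyme in these mice was not measured. Pla2g5 (chr4:138799244-138863482, minus strand) had the smallest p of the comparison. It was at 1.98, 1.06 and 2.19 FPKM in HFD and 13.5, 11.2 and 20.1 in HFD+DSS (2.53 ± 0.24, limma adjusted p = 0.00446). The DSS values did not come near the HFD values, and Pla2g5 was the only gene called whichever of the 12 libraries was left out.

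Pla2g2a (chr4:138831857-138835186, plus strand), which the annotation lists as a polymorphic pseudogene, lies inside the span of Pla2g5, and the exons of the pair share 0 bases. It was at 1.15, 1.65 and 2.6 FPKM in HFD and 45.9, 11.9 and 19.1 in HFD+DSS (3.07 ± 0.45, limma adjusted p = 0.029). Its neighbour Pla2g2f (chr4:138750533-138757626), another secreted phospholipase A2, was at 1.53, 1.86 and 3.78 in HFD and 7.9, 7.4 and 12.7 in HFD+DSS, wholly higher with DSS but not called (1.63 ± 0.31, limma adjusted p = 0.0557). The transcripts of all 3 genes of this family were thus wholly higher in HFD+DSS. The highest DSS value of Pla2g5 and Pla2g2f was in replicate 3 and that of Pla2g2a in replicate 1.

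Slpi, a secreted inhibitor of leukocyte serine proteases, was at 8.67, 6.48 and 11.7 FPKM in HFD and 123, 42.9 and 40.00 in HFD+DSS (2.64 ± 0.45, limma adjusted p = 0.0364). Wfdc18, which carries the same whey acidic protein type of domain, was at 1.54, 1.07 and 1.02 in HFD and 12.7, 3.97 and 7.13 in HFD+DSS (1.90 ± 0.31, limma adjusted p = 0.0364). Both rose in each DSS library, with the highest values in HFD+DSS replicate 1. Pglyrp1, which binds the peptidoglycan of bacterial walls, was at 63.1, 53.5 and 74.1 in HFD and 264, 135 and 159.8 in HFD+DSS (1.49 ± 0.26, limma adjusted p = 0.0366).

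**Figure D2:**
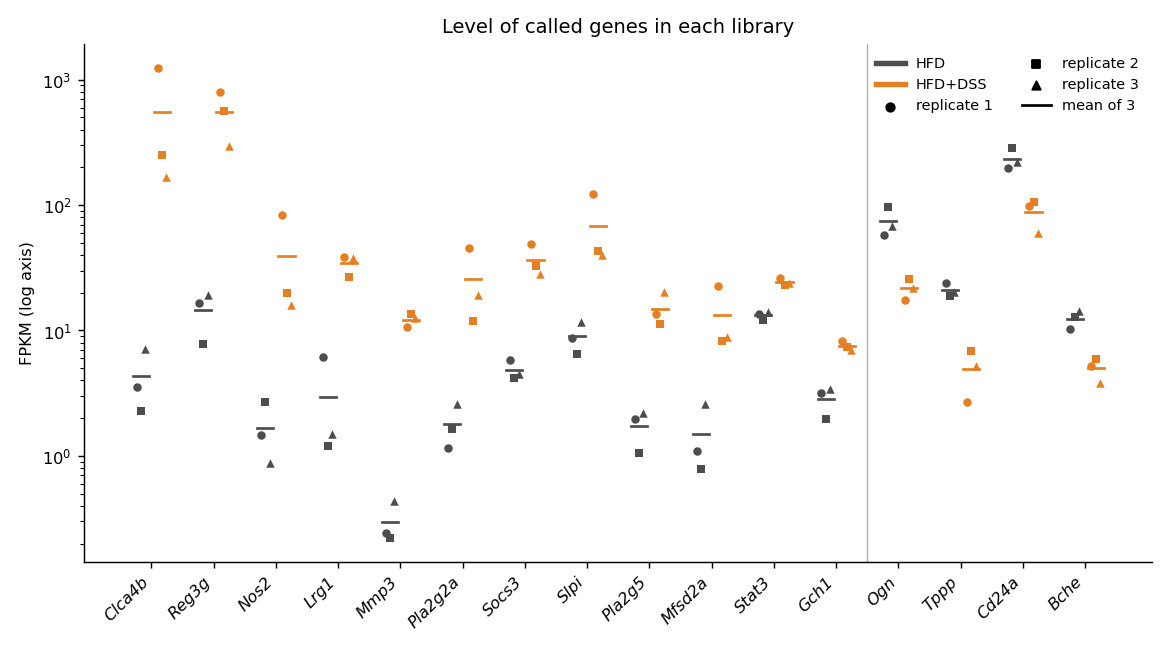
FPKM (log axis) of 16 called genes in the 3 HFD libraries (grey) and the 3 HFD+DSS libraries (orange), with a bar at each group's mean and a symbol for each replicate. The 12 genes left of the line rose and the 4 on the right fell, with no overlap between the groups. HFD+DSS replicate 1 gave the highest value in Clca4b (1251), Nos2 (82.7) and Slpi (123).

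Called genes of nitric oxide production were Nos2 and Gch1. Nos2, the inducible nitric oxide synthase, was at 1.47, 2.67 and 0.872 FPKM in HFD and 82.7, 19.9 and 16 in HFD+DSS (3.59 ± 0.52, limma adjusted p = 0.0285). Gch1, which catalyses the first step in making tetrahydrobiopterin, the cofactor of nitric oxide synthases, was at 3.16, 1.98 and 3.42 in HFD and 8.29, 7.45 and 6.97 in HFD+DSS (1.17 ± 0.16, limma adjusted p = 0.0162). Both genes rose in all 3 DSS libraries, Nos2 most in replicate 1 and Gch1 to a similar level in each. Of the 14 oxidant and nitric oxide enzymes tested (of 17) Nos2 was the 1 call, 5 were wholly higher and the median was 0.35. Duox2, the hydrogen peroxide-producing oxidase of the gut surface, was at 31.4, 32.3 and 19.3 in HFD and 103, 79.9 and 50.03 in HFD+DSS (limma adjusted p = 0.0718, not called), and its maturation factor Duoxa2 at 17.4, 23.7 and 7.62 in HFD and 93.2, 74.1 and 39 in HFD+DSS (limma adjusted p = 0.0708, not called).

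The acute-phase list gave 2 calls. All 12 members tested (of 19) had a positive log2 fold change, 8 were wholly higher, Lrg1 and Cd14 were called, and the median was 1.51, or 1.55 with the Hox covariate. Lcn2 passed the filter through the DSS libraries alone, and the other 11 genes, 7 of them wholly higher, had a median of 1.31. Lrg1 (chr17:56119678-56122001), a leucine-rich glycoprotein of the acute phase, was at 6.11, 1.21 and 1.48 FPKM in HFD and 38.6, 26.7 and 38.1 in HFD+DSS (3.37 ± 0.38, limma adjusted p = 0.00786). HFD replicate 1 stood above the other HFD libraries in Lrg1 and still lay well below every DSS library. Saa1, serum amyloid A1, was at 95.9, 45 and 70.4 in HFD and 522, 314 and 241 in HFD+DSS (2.32 ± 0.45, limma adjusted p = 0.0619), and Saa3, a form made outside the liver, at 1.71, 0.914 and 4.93 in HFD and 14.6, 26.7 and 20.3 in HFD+DSS (2.74 ± 0.61, limma adjusted p = 0.0905). Neither serum amyloid gene was called, although the groups did not overlap in either. The liver genes Fga, Fgb and Fgg were at or near 0, at most 0.175 FPKM in any of the 6 libraries. Among other members under the filter, Orm1 was wholly lower, at 1.05, 0.366 and 1.26 in HFD and 0, 0.145 and 0.135 in HFD+DSS. Saa2 and Itih4, at most 0.354 and 0.183, were wholly higher, and the groups overlapped in Orm2.

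The STAT3 list gave 5 calls among 24 genes tested (of 24), all higher, with a median of 0.30 and 17 positive. Socs3 (chr11:117966079-117970047, minus strand), which STAT3 induces and which then blocks the receptor that activated it, was at 5.82, 4.22 and 4.49 FPKM in HFD and 48.7, 32.9 and 28.3 in HFD+DSS (2.66 ± 0.30, limma adjusted p = 0.00786). Stat3 itself was at 13.6, 12.1 and 14 in HFD and 26.2, 23.1 and 24.1 in HFD+DSS (0.84 ± 0.14, limma adjusted p = 0.0364). The other 3 were Bcl3, a nuclear partner of NF-kappaB, at 10.6, 10.4 and 12.7 in HFD and 31.8, 29.8 and 33.4 in HFD+DSS (1.42 ± 0.17, limma adjusted p = 0.00786), Sbno2, a transcriptional coregulator known downstream of interleukin 10, at 7.71, 6.12 and 5.92 in HFD and 19, 13.5 and 14.4 in HFD+DSS (1.12 ± 0.17, limma adjusted p = 0.029), and the transcription factor Cebpd at 12.2, 6.6 and 7.64 in HFD and 23, 21.8 and 33 in HFD+DSS (1.47 ± 0.27, limma adjusted p = 0.0489). Bcl3 and Stat3 reached a similar level in all 3 DSS libraries, Cebpd was highest in replicate 3, and the groups did not overlap for any of these genes. Small parts of the exons of Bcl3, Stat3 and Cebpd overlap another tested gene (6.505%, 0.756% and 15.003% of their exon bases), whose reads cannot be told apart without strand.

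Promoters are shown for the 4 genes called higher that hold a STAT motif, since Socs3 and Sbno2 are among the STAT3 list's own calls, and for the 1 called gene with an NF-kappaB motif. The sequences run from 250 bases before to 50 after a start site, 5′ to 3′ on the gene's strand, from RefSeq on GRCm38.p6, with the motif in capitals. The motifs searched on both strands were TTCNNNGAA (STAT), GGGA and TTCC with any 2 bases between them (NF-kappaB) and TTGCNNAA (C/EBP). Socs3 is at chr11:117969317-117969616 (minus strand), Sbno2 at chr10:80102653-80102952 (minus strand, 1 of its 3 promoters), Gfap at chr11:102897151-102897450 (minus strand), Trp53i11 at chr2:93187298-93187597 (plus strand) and Pglyrp1 at chr7:18884440-18884739 (plus strand).
Socs3: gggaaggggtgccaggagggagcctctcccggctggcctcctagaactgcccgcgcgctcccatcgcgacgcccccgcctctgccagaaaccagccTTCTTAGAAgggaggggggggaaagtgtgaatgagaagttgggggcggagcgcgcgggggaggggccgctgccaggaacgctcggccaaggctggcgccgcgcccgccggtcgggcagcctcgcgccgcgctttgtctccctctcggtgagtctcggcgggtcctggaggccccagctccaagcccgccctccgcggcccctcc
Sbno2: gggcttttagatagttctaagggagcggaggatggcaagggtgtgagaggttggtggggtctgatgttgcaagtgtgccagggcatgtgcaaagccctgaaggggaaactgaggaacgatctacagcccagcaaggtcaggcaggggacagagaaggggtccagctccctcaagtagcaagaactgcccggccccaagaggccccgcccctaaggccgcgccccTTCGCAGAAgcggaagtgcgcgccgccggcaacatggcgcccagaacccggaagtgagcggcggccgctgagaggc
Gfap: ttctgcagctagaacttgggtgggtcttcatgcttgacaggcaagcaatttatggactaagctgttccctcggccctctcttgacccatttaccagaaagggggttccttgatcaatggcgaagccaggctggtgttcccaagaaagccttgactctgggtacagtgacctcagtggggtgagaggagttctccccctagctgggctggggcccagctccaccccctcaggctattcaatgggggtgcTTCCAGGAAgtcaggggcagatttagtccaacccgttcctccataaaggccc
Trp53i11: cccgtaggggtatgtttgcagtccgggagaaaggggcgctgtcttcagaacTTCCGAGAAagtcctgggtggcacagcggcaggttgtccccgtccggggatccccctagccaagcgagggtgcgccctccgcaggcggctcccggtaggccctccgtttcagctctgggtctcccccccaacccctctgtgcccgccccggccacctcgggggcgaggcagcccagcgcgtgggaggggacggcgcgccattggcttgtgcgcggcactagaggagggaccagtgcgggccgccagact
Pglyrp1: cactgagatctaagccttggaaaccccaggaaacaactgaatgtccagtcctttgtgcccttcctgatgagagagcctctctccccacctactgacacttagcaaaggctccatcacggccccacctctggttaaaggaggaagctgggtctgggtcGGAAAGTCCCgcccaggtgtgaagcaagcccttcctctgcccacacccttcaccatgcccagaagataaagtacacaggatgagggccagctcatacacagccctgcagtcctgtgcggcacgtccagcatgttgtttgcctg

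The match began 154 bases before the start site in Socs3, 26 in Sbno2, 2 in Gfap, 199 in Trp53i11 and 93 in Pglyrp1. Of the 39 genes called higher, 24 had a promoter in the table, and 4 of these held the STAT motif (16.7%), against 793 of the 9686 tested genes with a promoter (8.19%). The NF-kappaB motif was in 1 of the 24 (4.17%, against 1.84%) and the C/EBP motif in 3, Gstp3, Mmp3 and Slpi (12.5%, against 10% of all). Of 8 promoters among the genes called lower, 1 held the STAT motif (12.5%), that of Prlr. The C/EBP motif was in 2 of these 8 (25%), Prlr and the predicted gene Gm20275, and the NF-kappaB motif in 0. These are matches of letters in a 300-base window, not measured sites.

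NF-kappaB feedback and innate sensing gave 3 calls among 26 genes tested (of 28), all higher, with 19 positive and a median of 0.13. Cd14, the coreceptor for bacterial lipopolysaccharide, was at 21.7, 21.5 and 25.9 FPKM in HFD and 57, 54.2 and 63.6 in HFD+DSS (1.30 ± 0.17, limma adjusted p = 0.0162). Zc3h12a, an RNase that degrades cytokine transcripts, was at 7.84, 10.2 and 5.63 in HFD and 24.8, 21.6 and 17.1 in HFD+DSS (1.34 ± 0.21, limma adjusted p = 0.0317). Nfkbiz, an inducible nuclear member of the inhibitor of kappaB family, was at 8.87, 10.7 and 7.86 in HFD and 28.2, 18.9 and 17.3 in HFD+DSS (1.12 ± 0.19, limma adjusted p = 0.0364). All 3 genes were wholly higher in DSS, Cd14 to a similar level in each library and the other two most in replicate 1. The feedback gene Tnip3 was at 0.42, 1.28 and 1.9 in HFD and 10.5, 4.88 and 4.33 in HFD+DSS and was not called (limma adjusted p = 0.0675). Among 18 inflammasome genes and gasdermins tested, the call was Gsdmd, the pore-forming effector of pyroptosis, at 35, 27.2 and 32.3 in HFD and 113, 59.6 and 70.7 in HFD+DSS (1.29 ± 0.22, limma adjusted p = 0.0364).

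No gene of the cytokine and chemokine lists was called. Of 22 inflammatory cytokines and mediators on the list 9 were tested, 8 with a positive fold change, with a median of 0.63. Without Lif, which passed the filter through the DSS libraries alone, 7 of 8 were positive. Tnf was at 0.919, 1.25 and 0.637 FPKM in HFD and 6.84, 3.92 and 2.17 in HFD+DSS (1.37 ± 0.28, limma adjusted p = 0.0708). Il18, an epithelial cytokine released by inflammasomes, was at 5.42, 8.58 and 19.99 in HFD and 91.6, 52.8 and 51.8 in HFD+DSS (2.56 ± 0.59, limma adjusted p = 0.102), with the highest HFD value in replicate 3, and its log2 fold change was 1.54 with the Hox covariate. Il6 stayed under 1 FPKM in all 6 libraries (at most 0.510), and Il22 reached 3.90 in HFD+DSS replicate 1 with at most 0.152 in the others. Of 22 chemokines tested (of 30), 11 were positive and the median was 0.02. Without Cxcl1 and Cxcl5, which passed through the DSS libraries alone, the median was -0.12. Cxcl5, which attracts neutrophils, was at 0, 0.0304 and 0.105 in HFD and 16.9, 3.41 and 3.46 in HFD+DSS (limma adjusted p = 0.0718), and Ccl2, which attracts monocytes, at 0.772, 1.69 and 1.66 in HFD and 9.22, 4.11 and 3.96 in HFD+DSS (limma adjusted p = 0.162).

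Neutrophil genes rested on few transcripts. Only 6 of 23 were tested, none was called, all 6 were positive and the median was 1.24, while 2 of the 6, S100a8 and S100a9, passed the filter through the DSS libraries alone. The median of the other 4 was 0.17. S100a8, a subunit of calprotectin, was at 0.452, 0 and 0.376 FPKM in HFD and 22.3, 3.49 and 1.89 in HFD+DSS (limma adjusted p = 0.208), and its partner S100a9 at 0.722, 0.977 and 0.375 in HFD and 16, 5.18 and 2.91 in HFD+DSS (limma adjusted p = 0.143). Among granule genes of the list that were under the filter, Elane and Ngp were at 0 in all 6 libraries and Mpo at most at 0.0459 FPKM. Ltf, lactoferrin, was at 0.109, 0.0821 and 0 in HFD and 34, 0.783 and 1.61 in HFD+DSS, high in HFD+DSS replicate 1 alone, and Mmp9 reached at most 1.46. Ly6g, whose protein marks neutrophils, was nonetheless at 0.8, 1.68 and 58.4 in HFD and 521, 101 and 92.7 in HFD+DSS (limma adjusted p = 0.143), with HFD replicate 3 far above the other HFD libraries, as in the Hox genes. Its log2 fold change of 4.70 was 2.40 with the Hox covariate, and members of the Ly6 family may share reads.

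Lymphocyte genes lay on the other side. All 26 T and NK cell genes tested (of 32) had a negative log2 fold change, 10 were wholly lower and none was called. The median was -0.52, or -0.64 with the Hox covariate. Cd28 passed the filter through the HFD libraries alone, which fixed its sign. The other 25 genes were all negative, 9 of them wholly lower, with a median of -0.50. Nkg7, a granule protein of cytotoxic lymphocytes, was at 11.3, 12 and 8.28 FPKM in HFD and 2.65, 4.43 and 3.55 in HFD+DSS (-1.35 ± 0.28, limma adjusted p = 0.0718). Gzma, granzyme A of the same cells, was at 40.00, 41.2 and 32.9 in HFD and 18.6, 19.1 and 8.54 in HFD+DSS (-1.32 ± 0.47, limma adjusted p = 0.256). The mean level of this list was lowest in HFD+DSS replicate 3, and its median was -0.35 without that library. Jchain, the joining chain of secreted IgA, was at 573, 801 and 582 in HFD and 249.6, 514 and 127 in HFD+DSS (limma adjusted p = 0.234, not called), while 22 monocyte and macrophage genes had a median of -0.02.

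**Figure D3:**
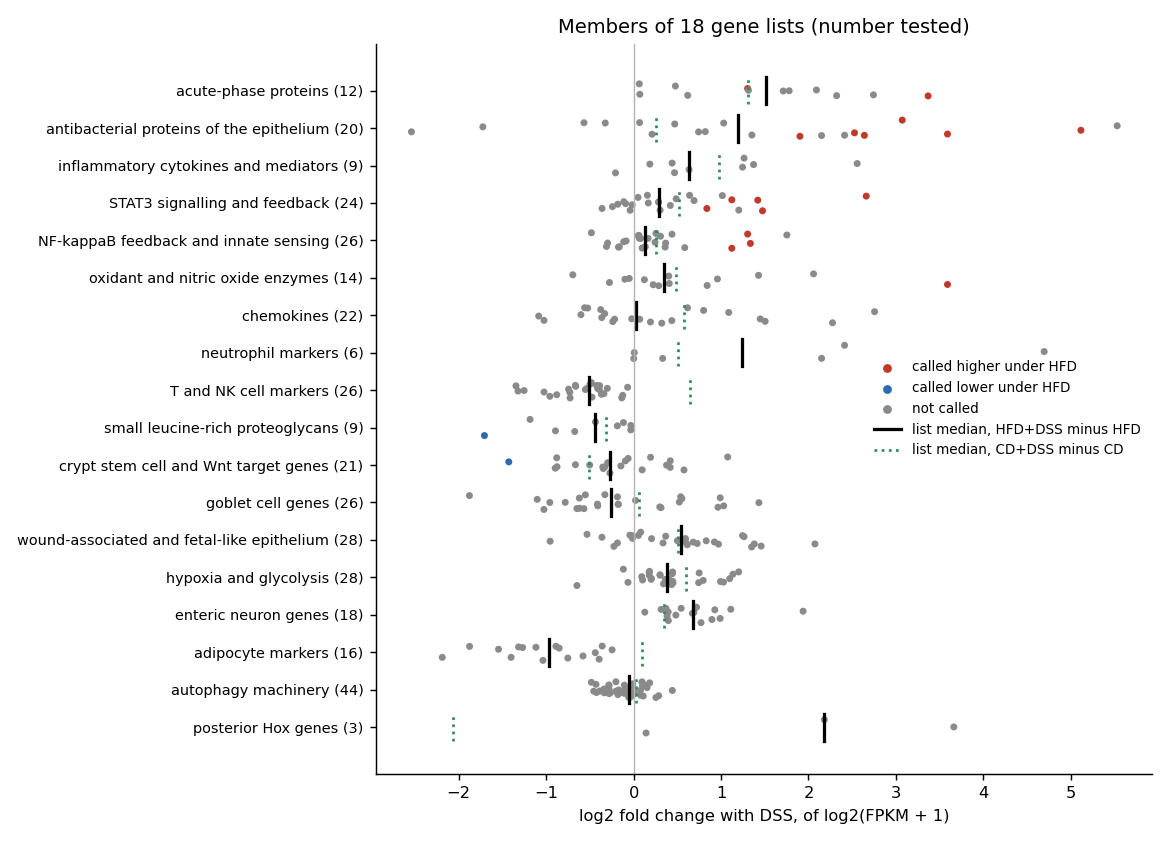
Log2 fold change (horizontal axis) of each tested member of 18 gene lists, coloured by its call in HFD+DSS against HFD. The solid bar is the list's median under the high-fat diet and the dotted bar that under CD, for which the T and NK cell genes had medians of -0.52 and 0.64.

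Matrix genes moved in both directions. Mmp3 (chr9:7445822-7455975), stromelysin 1, a matrix metalloproteinase made by stromal cells, was at 0.244, 0.22 and 0.435 FPKM in HFD and 10.6, 13.4 and 12.5 in HFD+DSS (3.34 ± 0.39, limma adjusted p = 0.00786), under 1 in every HFD library and above 10 in every DSS library. It was the 1 call among 20 metalloproteinase, plasminogen and inhibitor genes tested (of 27). Timp1, an inhibitor of metalloproteinases, was at 1.27, 1.28 and 1.76 in HFD and 6.2, 7.04 and 5.66 in HFD+DSS and was not called (limma adjusted p = 0.173). All 9 small leucine-rich proteoglycans tested (of 14) were negative, with a median of -0.44, and 1 was called. That was Ogn, osteoglycin, at 57.4, 96.4 and 68.7 in HFD and 17.6, 25.9 and 21.9 in HFD+DSS (-1.71 ± 0.31, limma adjusted p = 0.0437). Its relative Aspn, asporin, was at 25.8, 44.3 and 23.5 in HFD and 9.92, 14.5 and 14 in HFD+DSS and not called (limma adjusted p = 0.208), and 31 collagen and fibroblast matrix genes had no call and a median of -0.12.

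In the crypt, where stem cells renew the epithelium under Wnt signals, 1 of 21 genes tested was called. Cd24a, a surface glycoprotein of crypt base and tuft cells, was at 199, 285 and 220.1 FPKM in HFD and 98.4, 107 and 59.9 in HFD+DSS (-1.43 ± 0.25, limma adjusted p = 0.0385). The Wnt target Axin2 was at 7.16, 7.14 and 6.85 in HFD and 2.48, 3.57 and 4.09 in HFD+DSS (limma adjusted p = 0.125) and the receptor Tnfrsf19 at 2.07, 1.93 and 1.64 in HFD and 0.789, 0.772 and 0.874 in HFD+DSS (limma adjusted p = 0.0795), both wholly lower and not called. The list's median was -0.27, with 6 genes wholly lower and 2 wholly higher. Tnfrsf19 passed the filter through the HFD libraries alone, which fixed its sign. Of the other 20 genes 5 were wholly lower and 2 wholly higher, with a median of -0.21. The 37 proliferation genes had a median of 0.02 and no call.

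Of 44 genes of colonocyte differentiation and transport tested 1 was called, Clca4b, 5 were wholly higher and 5 wholly lower, and the median was 0.02. Over all genes tested 8.88% were wholly higher and 7.59% wholly lower. The 26 goblet cell genes tested had no call and a median of -0.26, or -0.04 with the Hox covariate and 0.018 without HFD+DSS replicate 3. Of these, 10 were positive, 2 wholly higher and 5 wholly lower, from -1.88 (B3gnt6) to 1.43 (Muc1). Muc2, the main mucin of the colon, was at 599, 809 and 676 FPKM in HFD and 401, 304 and 365 in HFD+DSS (limma adjusted p = 0.217), and B3gnt6, which builds the core 3 glycans of mucins, at 23.5, 31.7 and 9.76 in HFD and 2.82, 9.4 and 3.38 in HFD+DSS (limma adjusted p = 0.143). Both were wholly lower in DSS without a call. Car4, a carbonic anhydrase of surface colonocytes, was at 122, 110.3 and 201 in HFD and 946, 300.2 and 224 in HFD+DSS (limma adjusted p = 0.216), again highest in HFD+DSS replicate 1. Of 28 wound-associated and fetal-like genes, 7 were wholly higher, none was called and the median of 0.55 became 0.23 with the Hox covariate. Anxa8, an annexin of this list, was at 3.74, 6.3 and 8.74 in HFD and 40.4, 17.2 and 32.5 in HFD+DSS (limma adjusted p = 0.103).

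Genes of the enteric glia list split. Gfap, the intermediate filament of reactive glia, was at 0.908, 1.1 and 1.05 FPKM in HFD and 9.65, 2.76 and 9.79 in HFD+DSS (1.91 ± 0.32, limma adjusted p = 0.0364). Tppp, a protein that promotes tubulin polymerization, was at 23.8, 18.7 and 20.2 in HFD and 2.7, 6.9 and 5.25 in HFD+DSS (-1.94 ± 0.33, limma adjusted p = 0.0364), and Bche, butyrylcholinesterase, at 10.2, 12.8 and 14.2 in HFD and 5.24, 5.93 and 3.83 in HFD+DSS (-1.16 ± 0.20, limma adjusted p = 0.0364). So 1 of the 15 genes tested rose and 2 fell, and the median of 0.16 was -0.10 without HFD+DSS replicate 3 and 0.41 without HFD+DSS replicate 2. The glial transcription factor Sox10 was at 1.75, 0.836 and 0.94 in HFD and 0.731, 1.42 and 5.03 in HFD+DSS, high only in HFD+DSS replicate 3, the library with the most smooth muscle transcript. All 18 enteric neuron genes tested were positive with none called, and their median of 0.68 was 0.16 without that library. Tac1, which encodes substance P, was at 4.25, 4.85 and 4.95 in HFD and 56, 8.26 and 18.5 in HFD+DSS (limma adjusted p = 0.125, not called).

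Fat cell genes gave no call. All 16 adipocyte genes tested were negative, 5 wholly so, and the median was -0.96. Adiponectin (Adipoq) was at 26.3, 7.22 and 33.6 FPKM in HFD and 0.997, 13.8 and 4.32 in HFD+DSS, so the groups overlapped through HFD replicate 2 and HFD+DSS replicate 2. The part of fat attached to the tissue in this difference was not tested.

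**Figure D4:**
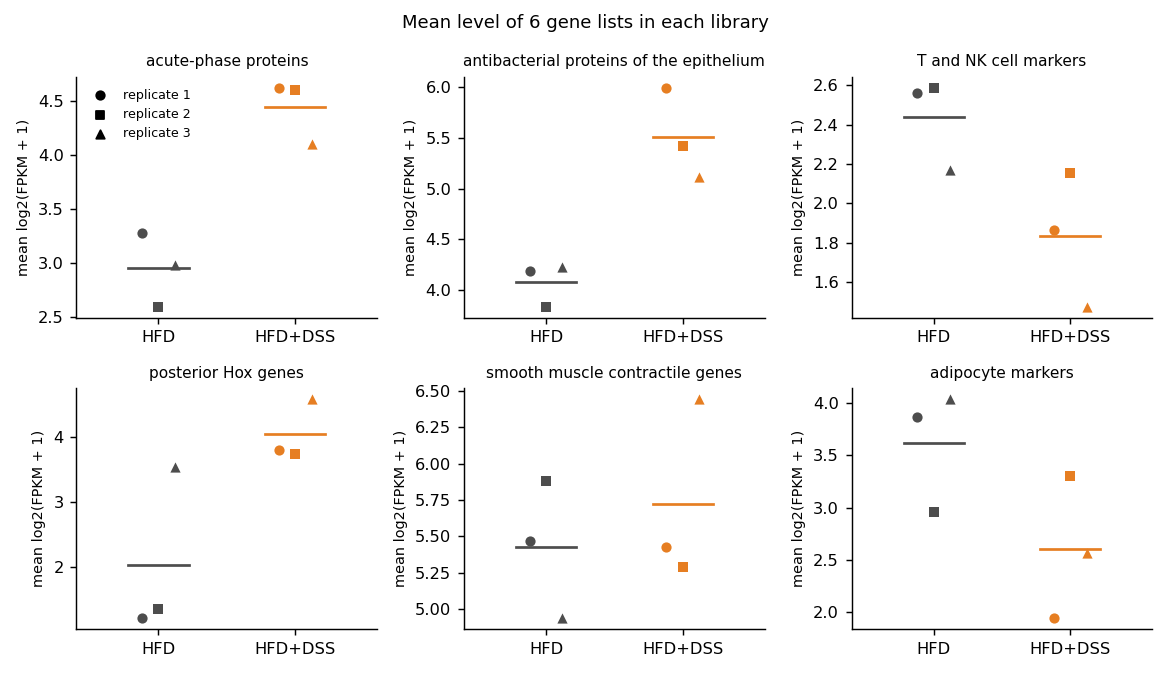
Mean log2(FPKM + 1) of the tested members of 6 gene lists in each library, with a bar at the group mean of 3. Acute-phase and antibacterial genes separated the groups, while HFD replicate 3 (3.53) lay close to the DSS libraries in posterior Hox genes and HFD+DSS replicate 3 (6.44) stood highest in smooth muscle genes.

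The lists of hypoxia, NRF2, fatty acid oxidation, unfolded protein and interferon genes held no call. Among 28 hypoxia and glycolysis genes 25 were positive with a median of 0.38, and Hk2, hexokinase 2, was at 23.4, 30.1 and 37 FPKM in HFD and 141, 63.3 and 37.5 in HFD+DSS (limma adjusted p = 0.208). The 33 NRF2 and glutathione genes had a median of 0.15, which was -0.00013 without HFD replicate 2 and 0.34 without HFD replicate 3. Gpx2, the glutathione peroxidase of gut epithelium, was at 50.8, 54.4 and 76.6 in HFD and 217, 104 and 205 in HFD+DSS (limma adjusted p = 0.104). Of 38 fatty acid oxidation and PPAR target genes 8 were wholly lower and 1 wholly higher, with a median of -0.02. Over all genes tested 7.59% were wholly lower and 8.88% wholly higher. Ppara, the receptor that drives fatty acid oxidation, was at 7.92, 7.89 and 8.33 in HFD and 2.82, 6.02 and 1.69 in HFD+DSS (limma adjusted p = 0.164), and Fabp2, the intestinal fatty acid binding protein, at 354, 403 and 826 in HFD and 145, 226 and 133 in HFD+DSS (limma adjusted p = 0.14). The 28 unfolded protein response genes had a median of 0.12 and the 37 interferon-stimulated genes one of 0.25. The interferon median rested on single libraries, at -0.38 without HFD+DSS replicate 1 and 0.71 without HFD+DSS replicate 2.

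The lists of heat shock, enteroendocrine, clock, respiratory chain, junction, lipid synthesis and bile acid genes held none either. Of 21 heat shock chaperones 18 were positive with a median of 0.41, and Hspa1b, an inducible HSP70 with a near-identical copy, was at 7.62, 5.97 and 10.4 FPKM in HFD and 30.1, 13.5 and 25.5 in HFD+DSS (limma adjusted p = 0.115). Of 17 enteroendocrine genes tested 11 were positive, 2 were wholly higher and 1 wholly lower, with a median of 0.14. The smallest p of this list was that of Pcsk1, which had its lowest log2 fold change, -0.65. Pyy, a hormone of the distal gut, was wholly higher, at 42.5, 36.3 and 49.8 in HFD and 166, 87.2 and 105 in HFD+DSS (limma adjusted p = 0.165). Its log2 fold change of 1.42 was 0.89 with the Hox covariate. Of 14 circadian clock genes tested 6 were wholly lower and 1 wholly higher, with a median of -0.26. Over all genes tested 7.59% were wholly lower and 8.88% wholly higher. Rora passed the filter through the HFD libraries alone. Of the other 13 clock genes 5 were wholly lower and 1 wholly higher, with a median of -0.23. The repressor Cry1 was at 15.6, 17 and 17.5 in HFD and 11.2, 12.9 and 8.58 in HFD+DSS (limma adjusted p = 0.222). The median was 0.20 over 35 nuclear respiratory chain genes, -0.01 over 33 junction genes, 0.13 over 30 genes of cholesterol and fatty acid synthesis and -0.14 over 13 bile acid genes. The bile acid median was -0.50 without HFD replicate 2 and 0.13 without HFD replicate 3.

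Autophagy, which the title of the study names, showed no call among 44 machinery genes, all of them tested. Their median log2 fold change was -0.05, 14 were positive, 2 were wholly higher and 3 wholly lower (8.88% and 7.59% of all genes tested were). The member with the smallest p was Ulk2, a kinase that starts autophagy, at 7.89, 10.01 and 8.53 FPKM in HFD and 6.41, 6.52 and 5.15 in HFD+DSS (-0.48 ± 0.15, limma adjusted p = 0.208). The 36 lysosomal genes tested had a median of 0.07. These are transcript levels, and autophagic flux was not measured.

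Called genes outside the lists had varied roles. Mfsd2a, a transporter of lysophosphatidylcholine, was at 1.09, 0.781 and 2.58 FPKM in HFD and 22.6, 8.21 and 8.8 in HFD+DSS (2.44 ± 0.35, limma adjusted p = 0.0285). The processed pseudogene Gm12891, named here after its values were seen, lies 20778 bases from Mfsd2a on the other strand and went from 0.262, 0 and 0.272 to 66.7, 9.38 and 7.86 (limma adjusted p = 0.0364). Ptk6, a tyrosine kinase of differentiating epithelium, was at 4.03, 3.75 and 4.88 in HFD and 23.8, 16.7 and 13.8 in HFD+DSS (1.84 ± 0.27, limma adjusted p = 0.029), and Slc5a9, a sodium-coupled sugar transporter, at 2.57, 2.67 and 2.68 in HFD and 19.1, 7.38 and 13 in HFD+DSS (1.87 ± 0.29, limma adjusted p = 0.029). All of these were wholly higher, with the top value in HFD+DSS replicate 1.

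Smaller rises, of 0.73 to 1.72 on the log2 scale, included the heparan sulfate sulfotransferase Hs6st1, the laminin-binding integrin Itga3, Tldc2, the guanine nucleotide exchange factor Arhgef10l, Gnpda1, which deaminates glucosamine 6-phosphate, Il34, a ligand of the macrophage receptor Csf1r, the cytokine Thpo, the cytochrome oxidase subunit Cox8b, Trp53i11, the zinc finger factor Zbtb16 and the glutathione transferase Gstp3. Il34 was at 2.5, 2.08 and 1.86 FPKM in HFD and 5.12, 4.91 and 5.99 in HFD+DSS (limma adjusted p = 0.029). Chrdl2, a secreted antagonist of bone morphogenetic proteins, was at 0.189, 0.325 and 0.232 in HFD and 5.97, 2.06 and 7.73 in HFD+DSS (2.19 ± 0.37, limma adjusted p = 0.0364). Hs6st1, Arhgef10l and Trp53i11 were not called in any of the 12 fits that left out a library. Snord83b and the receptor segment Trgj1 were listed at 0 in all 3 HFD libraries and had at most 8 and 3 fragments in any of the 6 libraries, so no fold is given.

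The remaining falls were of low to moderate genes. Lrat, which stores retinol as its ester, was at 4.26, 5.04 and 3.13 FPKM in HFD and 0.833, 1.27 and 0.225 in HFD+DSS (-1.56 ± 0.24, limma adjusted p = 0.0301). Prlr, the prolactin receptor, was at 2.46, 2.56 and 2.44 in HFD and 0.44, 1.03 and 0.342 in HFD+DSS (-1.15 ± 0.19, limma adjusted p = 0.0364). Bambi, a pseudoreceptor that dampens TGF-beta signals, was at 2.19, 2.24 and 1.88 in HFD and 0.624, 0.871 and 0.759 in HFD+DSS (-0.83 ± 0.14, limma adjusted p = 0.0364). Each of the 3 was wholly lower with DSS. Mmd, at 11.4, 14.2 and 17.4 in HFD and 7.78, 8.03 and 6.98 in HFD+DSS (-0.82 ± 0.15, limma adjusted p = 0.0482), was not called once any library was left out, and the ribosomal pseudogene Rpl21-ps10, at 7.46, 9.8 and 8.29 in HFD and 0.82, 1.41 and 2.73 in HFD+DSS (-1.90 ± 0.24, limma adjusted p = 0.0113), may share reads with other Rpl21 copies. The predicted genes 9130208D14Rik and Gm45912, 417 bases apart on 1 strand of chromosome 7, both fell, as did 3 other predicted genes.

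The same 13433 genes were set against DSS on the CD diet, a contrast of 6 other libraries. Of the 39 genes called higher under the high-fat diet, 34 had the same sign under CD and 5 were called there too, namely Socs3, Mmp3, Bcl3, Sbno2 and Reg3g. The median log2 fold change of the 39 was 0.80 under CD, beside the 1.49 under the high-fat diet that chose them. Under CD, 11 genes were called (0.0819% of those tested). Of the 14 genes called lower, 13 had the same sign under CD, with a median of -0.68 and no call.

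Whether the DSS difference itself depended on diet was tested as an interaction. No gene was called by limma. An unadjusted p under 0.05 was reached by 713 genes, against 672 expected if no gene differed. Limma-voom on recovered fragments also called 0. Pla2g2a, which rose under the high-fat diet, was at 7.37, 8.3 and 9.63 FPKM in CD and 10.1, 2.79 and 5.2 in CD+DSS, so HFD alone held the lowest levels of the 4 groups, with an interaction of 3.63 ± 0.64 (SE, limma adjusted p = 0.26). Pla2g2f was at 14.7, 12.3 and 14 in CD and 8.15, 3.22 and 5.52 in CD+DSS, with an interaction of 2.84 ± 0.43 (limma adjusted p = 0.17). Nkg7 lay the other way, at 2.43, 2.51 and 6.04 in CD and 11.6, 8.51 and 8.29 in CD+DSS (-2.59 ± 0.39, limma adjusted p = 0.17). Of the 26 T and NK cell genes tested, 19 had an unadjusted interaction p under 0.05, beside 713 of all 13433 genes tested. Slc1a1, a glutamate transporter, the predicted gene 9030619P08Rik and the receptor segments Trgj1 and Trgj2 were the other 4 of the 6 smallest interaction p, with none called. Beside these values, Hoxb13 was at 32.9, 61.3 and 28.8 FPKM in CD and 22.6, 0.0336 and 0.122 in CD+DSS, and at 0.711, 0 and 19.3 in HFD and 27.4, 37.8 and 62.8 in HFD+DSS, so its group means too differed in opposite directions on the 2 diets. With the posterior Hox level as a covariate no interaction was called and 143 genes had an unadjusted p under 0.05.

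**Figure D5:**
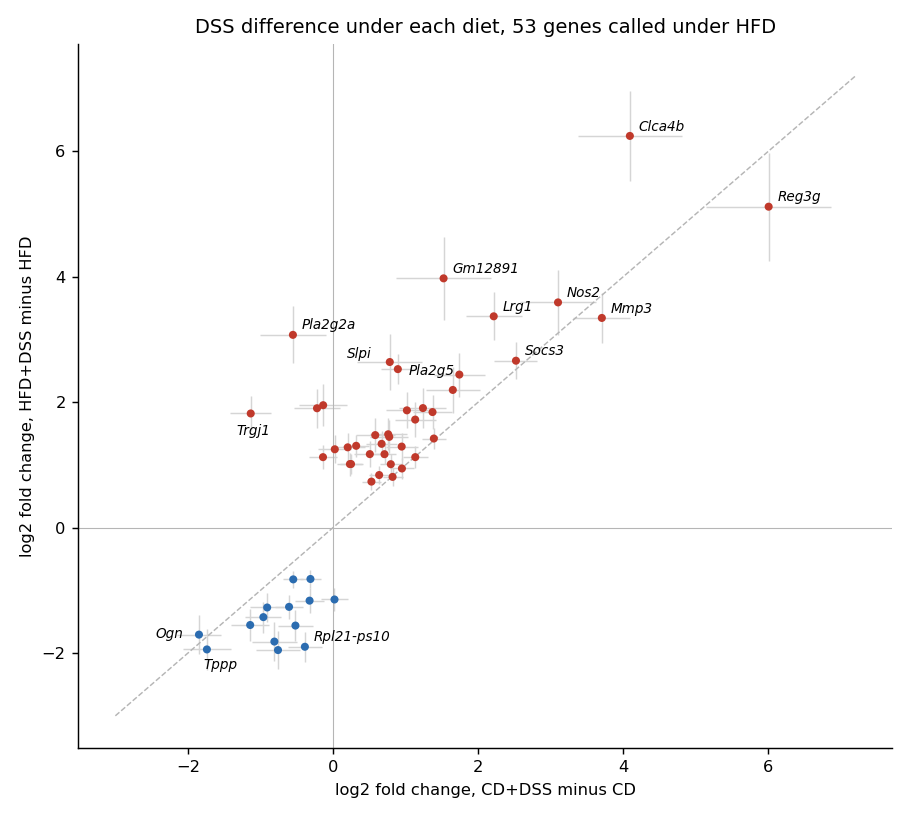
Log2 fold change with DSS under CD (horizontal axis) and under the high-fat diet (vertical axis) of the 53 genes called under the high-fat diet, with SE bars from limma and a dashed line of equal change. Of the 39 genes in red 34 lie right of 0, and Pla2g2a and Trgj1 lie left of it.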

How the data were processed

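Colon RNA from 12 mouse samples in 4 groups of 3 had been sequenced. Per the labels' protocols, the RNeasy mini plus and SMARTER mRNA-Seq kits served for extraction and library preparation. The build was mm10, per the submitters' processing notes. For alignment, counting, strand and normalization the tools were not given in the sources used here. One FPKM table of 54532 genes was deposited by the authors. Fragments recovered from these values and GENCODE M21 exon lengths were whole within 0.1 fragment for 97.0% to 97.2% of values, 14700000 to 17900000 per library. Every library had a median ratio of 1.009 to the gene-wise geometric means, so the deposited values already carried such a scaling. Symbols and coordinates are from GENCODE M21, which held 54495 of the identifiers.

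Values were analysed as log2(FPKM + 1), which understates the change of low genes, with limma 3.58.1 in R 4.3.3 (eBayes with trend). All 12 libraries entered 1 fit with a mean per group. The contrast was HFD+DSS minus HFD, the interaction subtracted CD+DSS minus CD, and the call was a two-sided adjusted p (Benjamini-Hochberg over all 13433 genes) under 0.05. The fit was tested on simulated data. The labels do not say that the samples of a group are separate animals, so p-values measure the spread between these samples, and 3 per group limits the precision.

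The comparison and the 48 gene lists (1195 entries, 1005 of them tested) were chosen with earlier results of these data known, and lists are described by counts and medians without a test. Genes were named by rule: called genes that are no predicted model or receptor segment, in each list the 4 smallest p at most, cell type markers, the 6 smallest interaction p and 3 posterior Hox genes. Liver, cytokine and granule genes under the filter, Reg3b, Gm12891 and the other predicted genes were named outside it, after their values were seen. The alternatives were another pseudocount, other filters, the 2 groups alone, limma-voom on recovered fragments, rescaling to equal sums, a replicate block, posterior Hox or smooth muscle level as a covariate, and each library left out. Promoters are RefSeq sequences on GRCm38.p6.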

Additional observations from a re-analysis of the deposited data

How the results depend on the processing

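The 53 calls (39 higher, 14 lower) became 51 (38, 13) with a pseudocount of 0.1, 48 (35, 13) with limma-voom on recovered fragments or with the filter set over all 12 libraries, and 37 (31, 6) after rescaling to equal sums, which moved the median of all genes to -0.06. They became 37 (27, 10) with the smooth muscle level as a covariate, 15 (12, 3) with the 2 groups alone, 11 (9, 2) without a filter and 1 (1, 0) with the posterior Hox level. Leaving out 1 library gave 1 to 79 calls, 1 to 44 higher and 0 to 37 lower. All 53 genes kept their direction under all of these settings. With another pseudocount or filter, the 2 groups alone or a library left out, this was fixed in advance, since their groups did not overlap. Of 966 single values of the 46 called genes named by the rule, 542 lost the call. The range of each gene's calls runs from 0 of 12 libraries left out (Hs6st1) to 12 (Pla2g5). The interaction gave 0 calls except for 1 without a filter and 0 to 3 with a library left out (3 without CD replicate 3, 1 without CD+DSS replicate 1).

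Replicate numbers are shared by the groups, but deviations of same-numbered HFD and HFD+DSS libraries correlated at -0.49, -0.04 and -0.22, so the numbers were not taken as a pairing. With a replicate block there were 17 calls (12 higher, 5 lower). The interaction had none. No library's deviations correlated best with those of its own number.

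Among the uncalled genes named in the text, signs turned for 3. Of 47 list medians, 19 turned sign with 1 library left out, none of them above 0.34 in size, and that of the posterior Hox genes turned to -0.11 with the Hox covariate. Hoxa13 went from 0.14 to -0.63 with the Hox covariate and -0.089 with the smooth muscle covariate, and ranged from -0.093 (without HFD replicate 1) to 0.53 with a library left out. Hoxd13 went from 2.18 to -0.11 with the Hox covariate, which is built from it, and Sox10 ranged from -0.064 (without HFD+DSS replicate 3) to 0.84. Otherwise the cause of these changes was not tested. With 3 libraries a group, genes with few fragments, such as Cox8b with 3 to 22, were limited by depth.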
